A study of Mus musculus with 4 samples.

Results

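The comparison of 100 nM aldosterone with ethanol covered 6935 genes on 2 of the 4 arrays of the series, 1 array per treatment. A gene entered when its brightest probe set, the group of probes that reads 1 stretch of a transcript, had a geometric mean signal of at least 420 over the 4 arrays; 6935 of 18193 genes with a single symbol did so, which is 38.1%. Signals are linear MAS5 intensities, and each difference is the log2 signal with 100 nM aldosterone minus the log2 signal with ethanol, so that 0.58 corresponds to 1.5-fold. With 1 array a side there is no replicate error, no p-value and no standard error, and every difference is one between arrays.

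The cells were mDCT, an immortalised line described as mouse distal convoluted tubule, transfected with a 3xFLAG-tagged human mineralocorticoid receptor (MR). At 48 h after transfection all cells received spironolactone or its ethanol vehicle, and 2 h later aldosterone or ethanol for 3 h. The array of 100 nM aldosterone was set against the array of ethanol alone. Beside them stand the array of 1 nM aldosterone and that of the MR antagonist, 5 µM spironolactone followed by 100 nM aldosterone. All 4 arrays carry the human receptor, none is of spironolactone alone, and transfection need not reach every cell.

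Aldosterone is the adrenal steroid that raises sodium reabsorption in the distal nephron. It binds MR in the cytoplasm, and the receptor then moves to the nucleus and binds palindromic DNA elements that the glucocorticoid receptor binds too. Transcripts that appear within hours include those of kinases, transcription factors and channel regulators, whose products act on the epithelial sodium channel and the sodium pump.

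With 100 nM aldosterone 16 genes were at least 1.5-fold higher than with ethanol, which is 0.231% of those measured, and 13 were at least 1.5-fold lower, which is 0.187%. The highest difference belonged to Sgk1, a kinase that keeps sodium channels at the cell surface. Tsc22d3, which encodes the leucine zipper protein GILZ, was the only one of 2376 genes with at least 2 bright probe sets in which all of them passed 1.5-fold; a probe set is called bright when it reaches the floor of 420. The long non-coding RNA Malat1 was lower in all 5 of its bright probe sets. Several other large differences were seen in 1 probe set and not in another of the same gene, and some other pairs of arrays differed at more genes.

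**Figure D1:**
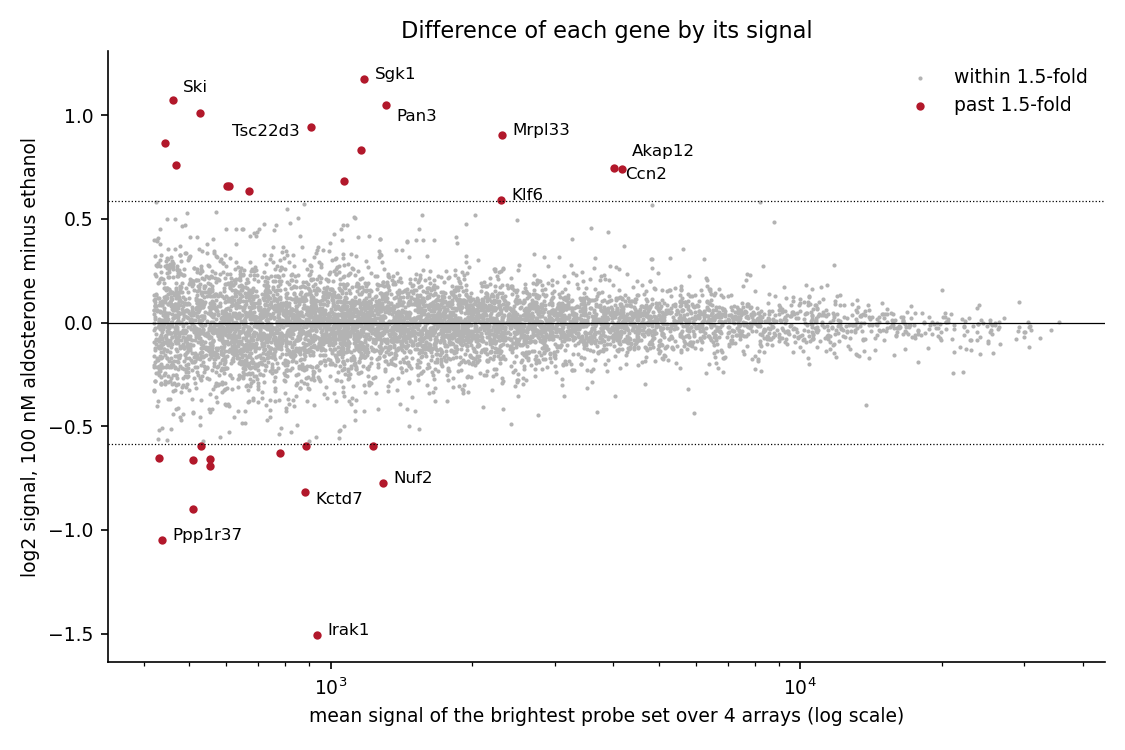
The log2 difference, 100 nM aldosterone minus ethanol, is plotted for each of 6935 genes against its mean signal over the 4 arrays on a log axis, and dotted lines mark 1.5-fold. Red points are the 29 genes past 1.5-fold, from Irak1 at -1.50 to Sgk1 at 1.18, and the grey cloud narrows towards bright genes.

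Sgk1, the serum- and glucocorticoid-regulated kinase, had a signal of 1810 with 100 nM aldosterone against 801 with ethanol, a log2 difference of 1.18. Its signal was 935 with 1 nM aldosterone and 1424 with 100 nM aldosterone after spironolactone. The order of the 4 arrays thus ran from ethanol through 1 nM and the antagonist to 100 nM. The gene has a single probe set on the array, 1416041_at, so no second reading of this transcript was at hand.

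Sgk1 and Tsc22d3 had the highest differences among the corticosteroid-responsive genes above the floor, and their promoters were searched with those of all genes. The search covered windows from 250 bases before to 50 bases after each annotated start site in RefSeq (GRCm38.p6). It looked for the steroid receptor palindrome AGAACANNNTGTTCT, which reads the same on both strands, and for its half-site as AGAACA or TGTTCT, which covers both strands. A full palindrome contains both half-sites and counts in both searches. Promoters are shown only for genes with a window that holds the palindrome or a half-site. The windows of Klf9, Fkbp5, Per1, Ski and Pan3 held 0 half-sites. Sgk1 has 6 windows on chromosome 10. The closest match to the palindrome in each is given from the most upstream window to the last, with letters that match in capitals:
Sgk1 window 1: gGAAtccgtTGTTCT
Sgk1 window 2: tGAAacagtTtgTCT
Sgk1 window 3: AGAAgAttcTGaTCT
Sgk1 window 4: AGccCAggaTGcTga
Sgk1 window 5: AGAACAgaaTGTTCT
Sgk1 window 6: AGgACAcggTGgcCa
The fifth matches at all 12 fixed letters, at chr10:21993701-21993715 on the plus strand, 189 bases before its start site and 965 bases upstream of the last start site. The others match at 7 to 10 of 12 letters. Over all 32851 windows in the table the full palindrome was found in 3, which is 0.00913%, and among 7286 windows of measured genes in 1, that of Sgk1. The 250 bases before the fifth start site, chr10:21993640-21993889 on the plus strand, read as follows, with the palindrome and a further half-site in capitals:
Sgk1: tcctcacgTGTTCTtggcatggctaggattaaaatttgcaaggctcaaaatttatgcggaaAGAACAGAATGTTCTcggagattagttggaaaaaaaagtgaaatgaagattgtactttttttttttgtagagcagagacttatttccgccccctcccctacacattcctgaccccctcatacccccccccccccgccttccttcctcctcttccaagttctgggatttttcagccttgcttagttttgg

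Tsc22d3 is a corticosteroid-responsive gene in many tissues. Its brightest probe set, 1420772_a_at, had a signal of 1365 with 100 nM aldosterone against 711 with ethanol, a difference of 0.94, while 1 nM aldosterone gave 703 and spironolactone with 100 nM gave 994. Its second bright probe set, 1425281_a_at, had 650 with 100 nM aldosterone against 419 with ethanol, a difference of 0.63, and 408 and 558 on the arrays of 1 nM aldosterone and of spironolactone. In both probe sets the arrays of ethanol and 1 nM lay together, 100 nM was highest and spironolactone lay between. Another 2 probe sets of the gene were under the floor and differed by 0.53, at a mean signal of 246, and by -1.24, at a mean signal of 33.8.

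One of the 3 Tsc22d3 promoter windows holds a half-site, 185 bases before its start site. It is shown beside the promoter of Irak1, the gene with the lowest difference of all, whose half-site lies 186 bases before its start site. The 250 bases before the start site are given, at chrX:140600523-140600772 for Tsc22d3 and at chrX:74023919-74024168 for Irak1, both on the minus strand of GRCm38.p6, with the half-site in capitals:
Tsc22d3: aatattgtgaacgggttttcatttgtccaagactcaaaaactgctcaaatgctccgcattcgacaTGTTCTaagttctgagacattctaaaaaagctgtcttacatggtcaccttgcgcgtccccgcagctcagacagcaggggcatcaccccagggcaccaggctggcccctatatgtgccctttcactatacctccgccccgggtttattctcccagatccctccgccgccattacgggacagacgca
Irak1: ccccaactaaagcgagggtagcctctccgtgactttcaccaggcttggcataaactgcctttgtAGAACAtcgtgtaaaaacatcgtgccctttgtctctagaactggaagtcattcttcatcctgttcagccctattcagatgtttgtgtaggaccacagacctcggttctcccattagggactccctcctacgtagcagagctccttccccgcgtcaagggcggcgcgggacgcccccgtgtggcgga
A half-site of this kind is common. It was found in 6233 of all 32851 windows (19.0%) and in 818 of the 7286 windows of measured genes (11.2%). These 818 windows belong to 760 of the 5751 measured genes with a window. Of the 16 genes at least 1.5-fold higher, 11 have a window, and 8 of their 24 windows (33.3%) hold a half-site, from 5 genes: Sgk1, Tsc22d3, Zfp428, Dhcr7 and Pde2a. Sgk1 gives 6 of the 24 windows and Pde2a 5, so these windows are not independent. Of the 13 genes at least 1.5-fold lower, 11 have a window, and 4 of their 14 windows (28.6%) hold one, from Irak1, Kctd7 and Ppp1r37. These are matches of letters in short windows, and binding was not measured.

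Other genes known to respond to corticosteroids were read for comparison. The transcription factor gene Klf9 had 3 bright probe sets with differences of 0.45, 0.33 and 0.45. The brightest had a signal of 1844 with 100 nM aldosterone against 1349 with ethanol, next to 1393 with 1 nM aldosterone and 1640 with spironolactone. Each of these 3 passed 1.2-fold.

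The brightest probe set of Fkbp5, which encodes a co-chaperone of steroid receptors, had a signal of 1735 with 100 nM aldosterone against 1315 with ethanol, a difference of 0.40. Its signal with 1 nM aldosterone was 1880, above that with 100 nM, and with spironolactone it was 1414. A second Fkbp5 probe set under the floor had 329 with 100 nM aldosterone against 199.9 with ethanol, a difference of 0.72, with 209 at 1 nM aldosterone and 250.4 with spironolactone. The order of the arrays of 1 nM and 100 nM thus turned between these probe sets.

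Per1, a repressor in the circadian clock, had a mean signal under the floor and was not among the 6935 genes. Its signal was 527 with 100 nM aldosterone against 231 with ethanol, a difference of 1.19, with 224 at 1 nM aldosterone and 349 with spironolactone. The focal adhesion gene Tns1 and the small GTPase gene Rasl12 were also under the floor, with differences of 0.70 and 0.67. In its other probe sets Tns1 differed by 0.20 and 0.50. Such dim genes differed widely in both directions: under the floor 22.5% of 11258 genes were at least 1.5-fold higher and 19.4% at least 1.5-fold lower.

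The glucocorticoid receptor gene Nr3c1, whose product binds corticosteroids too, had a signal of 1708 with 100 nM aldosterone against 1959 with ethanol, a difference of -0.20. Its other bright probe sets differed by -0.16 and -0.17. The mouse MR gene Nr3c2 lay under the floor on all 4 arrays, with a highest signal of 21.8, and a mouse probe set is not designed to read the human construct. Hsd11b2, which encodes the enzyme that protects MR from glucocorticoids, lay under the floor, with 155 with 100 nM aldosterone against 148 with ethanol.

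Across all 6935 genes the median difference was -0.01 and the standard deviation over genes 0.147. Between both arrays 74.2% of genes lay within 10% of each other and 93.1% within 1.2-fold. At least 2-fold higher were 4 genes (0.0577%), and at least 2-fold lower were 2 (0.0288%). The count past 1.5-fold in either direction, 29 genes (0.418%), lay within the range of the other 5 pairs of arrays. The array of 1 nM aldosterone differed from that of ethanol at 44 genes (0.634%), and 100 nM from 1 nM aldosterone at 32 (0.461%). The spironolactone array differed from 100 nM aldosterone at 32 (0.461%), from ethanol at 27 (0.389%) and from 1 nM aldosterone at 17 (0.245%). Pairs with an array in common share its deviations.

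Differences were wider among dim genes. Among the 1734 dimmest, with signals up to 772, the standard deviation of the difference over genes was 0.187 and 14 genes passed 1.5-fold, while among the 1734 brightest, from 2977 upwards, it was 0.0978 and 2 genes passed. Those 2 were Ccn2 and Akap12, both higher. The floor itself left genes of like signal on each side: just under it Mtmr14 (mean signal 419) differed by 0.51 and Gatad2b by -0.53, and just inside it Rbm15b differed by 0.40 and Zfp618 by 0.04.

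Ccn2 encodes connective tissue growth factor, a matrix-associated protein of the TGF-beta response. Its single probe set had a signal of 5602 with 100 nM aldosterone against 3342 with ethanol, a difference of 0.75, and of 2887 and 4835 on the arrays of 1 nM aldosterone and of spironolactone. The single probe set of Akap12, a scaffold for protein kinases A and C, had 5495 with 100 nM aldosterone against 3284 with ethanol, a difference of 0.74, with 3396 at 1 nM and 4930 with spironolactone. Both genes were thus high on both arrays that received 100 nM aldosterone, with or without the antagonist, and low on the other two.

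Ski, a repressor of Smad signalling, had a signal of 776 with 100 nM aldosterone against 369 with ethanol, a difference of 1.07. The arrays of 1 nM aldosterone and spironolactone, at 400.4 and 394, lay with ethanol. These 3 arrays all lay under 420, so the Ski probe set reached the floor only through the array of 100 nM and had to differ. The other Ski probe set, under the floor, differed by 0.10. Zfp428, a zinc finger gene, had 621 with 100 nM aldosterone against 366 with ethanol, a difference of 0.76, with 452 at 1 nM and 471 with spironolactone.

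Pan3 encodes a subunit of an mRNA deadenylase. One probe set had a signal of 2125 with 100 nM aldosterone against 1026 with ethanol, a difference of 1.05, and 1192 and 1143 on the arrays of 1 nM aldosterone and of spironolactone. The other bright Pan3 probe set had 1186 with 100 nM aldosterone against 1354 with ethanol, a difference of -0.19, so the direction turned between them. The first of these carries the suffix _x_at, which marks probes that may also bind other transcripts.

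Genes of mitochondrial proteins, Mrpl33 and Cpt2, were among those higher. Mrpl33, a protein of the large mitochondrial ribosomal subunit, had a signal of 3280 with 100 nM aldosterone against 1750 with ethanol, a difference of 0.91, with 2350 at 1 nM aldosterone and 2134 with spironolactone. Cpt2, the inner membrane carnitine palmitoyltransferase that feeds fatty acids to oxidation, had 475 with 100 nM aldosterone against 261 with ethanol, a difference of 0.86. The arrays of 1 nM aldosterone and spironolactone had 612 and 509 for Cpt2, so that ethanol stood alone as low, and over the 2 compared arrays alone its mean was under the floor. A dim probe set of Mrpl33 differed by 0.01. A dim _x_at probe set of Cpt2, at a mean signal of 38.4, differed by 1.47. There 1 nM aldosterone was lowest, at 20.2 against 32.2 with ethanol, unlike in the bright one.

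Ldlrad3 encodes a membrane protein with low-density lipoprotein receptor repeats. It had 680 with 100 nM aldosterone against 338 with ethanol, a difference of 1.01, and 704 with 1 nM aldosterone and 473 with spironolactone. Tatdn1, which encodes a protein with a TatD nuclease domain, differed by 0.83, 0.58 and 0.20 in its 3 bright probe sets. In its brightest, 1218 with 100 nM aldosterone against 683 with ethanol, the arrays of 1 nM aldosterone and spironolactone were higher still, at 1501 and 1461.

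Of the remaining genes past 1.5-fold, Dhcr7, the enzyme of the last step of cholesterol synthesis, had 804 with 100 nM aldosterone against 519 with ethanol, a difference of 0.63. Pde2a, a cyclic nucleotide phosphodiesterase, had 755 with 100 nM aldosterone against 477 with ethanol, a difference of 0.66. Snx27, which sorts membrane proteins out of endosomes, had 710.4 with 100 nM aldosterone against 450 with ethanol, a difference of 0.66. In each of these 3 genes the arrays of 1 nM aldosterone and spironolactone lay between, and each has 1 bright probe set. A dim probe set of Snx27 differed by -0.08. Dim ones of Pde2a differed by 0.27 and by -2.78, the last at a mean signal of 16.7. Lsm12 differed by 0.68 in one bright probe set and by -0.05 in the other.

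Klf6, a zinc finger transcription factor induced by growth signals, stood just past the threshold. Its brightest probe set had 2552 with 100 nM aldosterone against 1693 with ethanol, a difference of 0.59, with 2424 at 1 nM aldosterone and 2707 with spironolactone. Its other 3 bright probe sets differed by 0.03, -0.02 and -0.04. The gene was thus higher in 1 of 4 bright probe sets.

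**Figure D2:**
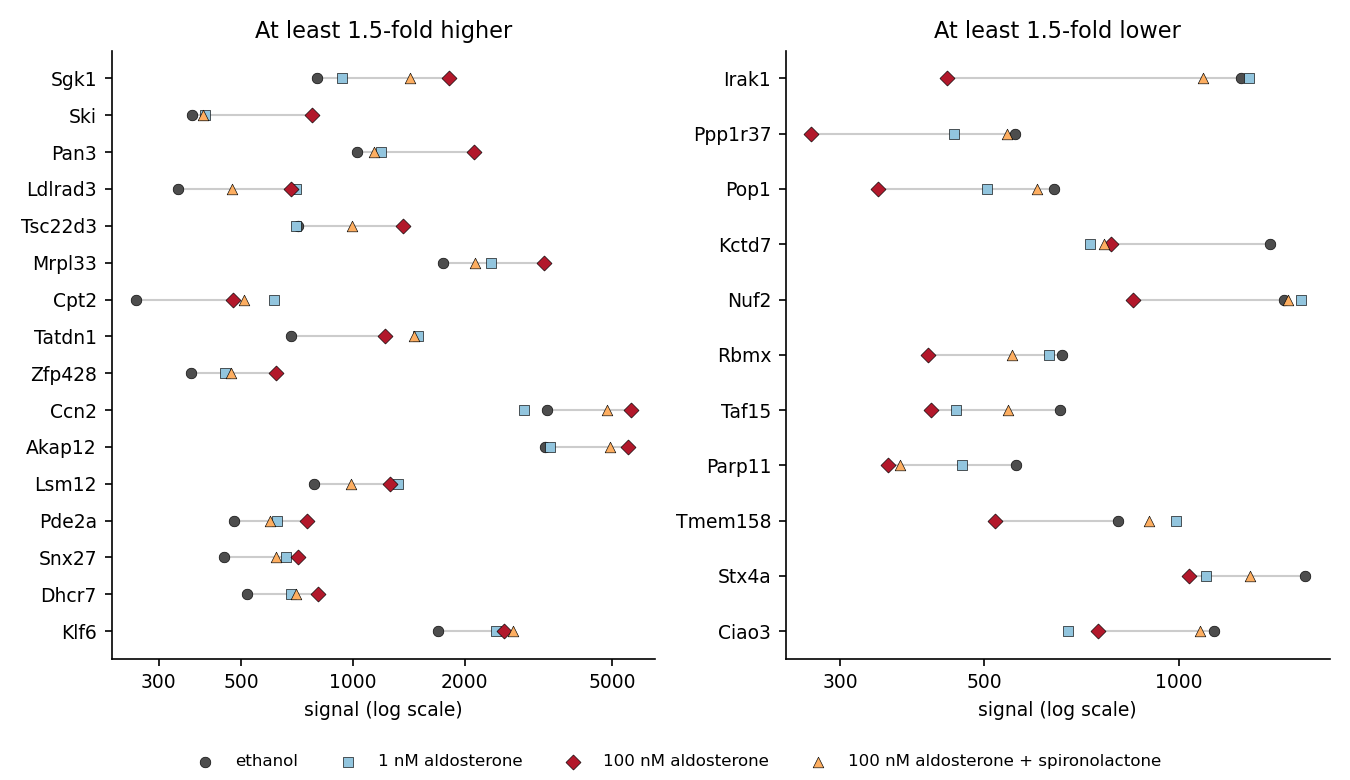
Signals on the 4 arrays (log axes) are plotted for the genes at least 1.5-fold higher (left) and lower (right) with 100 nM aldosterone than with ethanol, and the grey line joins these 2 arrays. All 16 higher genes and 11 of the 13 lower genes are shown, without 2 that have clone-like names; for Ccn2 and Akap12 the spironolactone point lies near that of 100 nM alone, and for Ski and Pan3 near ethanol.

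On the lower side Irak1, a kinase that relays interleukin-1 and Toll-like receptor signals, had a signal of 439 with 100 nM aldosterone against 1246 with ethanol, a difference of -1.50. Its signal was 1281 with 1 nM aldosterone and 1088 with spironolactone, so the array of 100 nM alone stood apart from the other 3. The probe set carries the suffix _x_at. The other 3 Irak1 probe sets, all under the floor, differed by -0.35 to -0.08.

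Ppp1r37, a regulatory subunit of protein phosphatase 1, had 270 with 100 nM aldosterone against 558 with ethanol, a difference of -1.05, with 450.1 at 1 nM aldosterone and 542 with spironolactone. Pop1, a subunit of ribonuclease P, had 343 with 100 nM aldosterone against 641 with ethanol, a difference of -0.90, with 505 at 1 nM aldosterone and 603 with spironolactone. Both had 100 nM lowest and ethanol highest, with spironolactone near ethanol. Over the 2 compared arrays alone the mean of Ppp1r37 was under the floor.

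Nuf2, a subunit of the kinetochore complex that holds microtubules, had a signal of 851 with 100 nM aldosterone against 1455 with ethanol, a difference of -0.77. The arrays of 1 nM aldosterone and spironolactone had 1542 and 1472, so 100 nM again stood alone. It was also the 1 member past 1.5-fold among 45 genes of G2 and mitosis, against 0.187% of all genes lower by as much. The median difference of these 45 genes was -0.03. Tmem158, a membrane protein induced by Ras, showed the same order, with 520 with 100 nM aldosterone against 804 with ethanol, a difference of -0.63, and 991 and 899 on the arrays of 1 nM aldosterone and spironolactone. Its 2 dim probe sets differed by -0.62 and -0.34.

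A different order was seen at Kctd7, of the potassium channel tetramerisation domain family. It had 785 with 100 nM aldosterone against 1381 with ethanol, a difference of -0.82, but 1 nM aldosterone and spironolactone, at 730.2 and 767, lay with 100 nM. The probe set carries the suffix _x_at, and the other Kctd7 probe set differed by -0.03. Ethanol thus stood alone as high, in 1 of 2 probe sets.

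Rbmx, a splicing regulator, had 409 with 100 nM aldosterone against 661 with ethanol, a difference of -0.69. Its second bright probe set had 439 with 100 nM aldosterone against 545 with ethanol, a difference of -0.31. The arrays of 1 nM aldosterone and spironolactone had 631 and 553 in the brightest, and 326 and 430 in the second. The order of the arrays of 1 nM and 100 nM thus turned between these probe sets. Taf15, of the FET family, differed by -0.66, with 414 with 100 nM aldosterone against 655 with ethanol, and by -0.10 in a probe set under the floor. The 62 splicing factors and RNA-binding proteins measured had a median difference of -0.03, with these 2 past 1.5-fold, against 0.187% of all genes lower by as much. The others on the lower side were Parp11 (-0.65), the plasma membrane SNARE gene Stx4a (-0.60), Ciao3 of the iron-sulphur cluster assembly pathway (-0.60) and 2 genes with clone-like names. Parp11 had 356 with 100 nM aldosterone, 371 with spironolactone, 463 with 1 nM aldosterone and 560 with ethanol, a mean of 430. It thus reached the floor only with the help of the ethanol array, where it was high. With 50 added to each signal before the log, Ciao3, Stx4a, Tmem158 and Klf6 no longer passed 1.5-fold.

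How far a single probe set can be read was checked within genes. For 2376 genes with at least 2 bright probe sets, the difference in the brightest correlated across genes with that in the next brightest at Pearson's r = 0.16 (Spearman's rho = 0.14). Genes are not independent replicates, and both probe sets share the arrays. The signs were equal at 54.5% of the genes, and the median absolute gap between both differences was 0.10. Of the 29 genes past 1.5-fold 6 had a next bright probe set, which had the same sign in 4, passed 1.2-fold in 3 and passed 1.5-fold in 1, Tsc22d3.

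**Figure D3:**
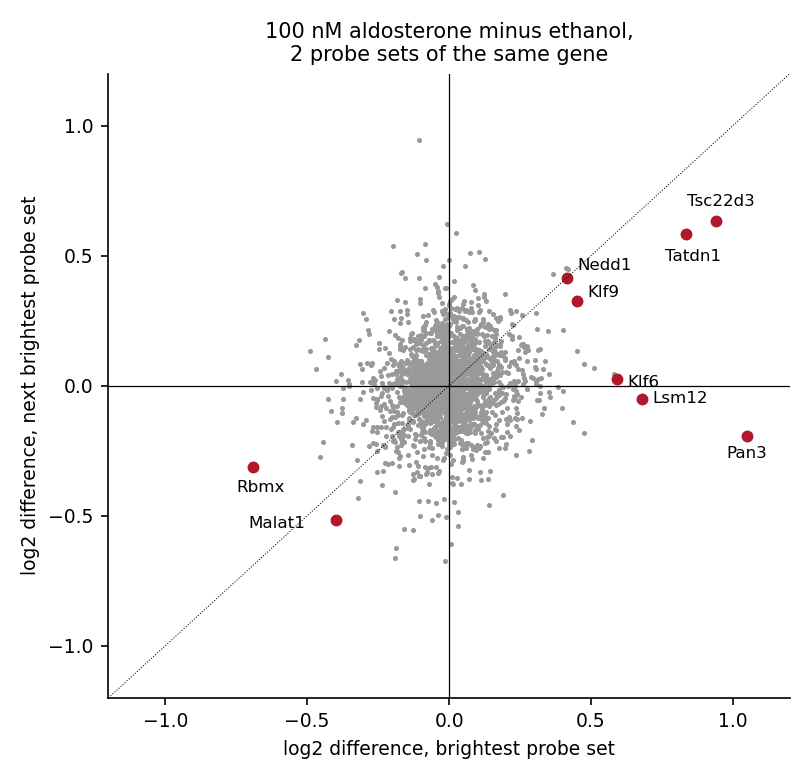
For 2376 genes the log2 difference, 100 nM aldosterone minus ethanol, in the brightest probe set (horizontal) is plotted against that in the next brightest (vertical), and the dotted line marks equality. The cloud shows r = 0.16; Nedd1 lies on the line, Tsc22d3 below it at 0.94 and 0.63, and Pan3, Lsm12 and Klf6 near or below 0 on the vertical axis.

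Every bright probe set of a gene lay above ethanol by 1.2-fold or more at 5 of these 2376 genes (0.21%), and below it by as much at 4 (0.168%). At 1.5-fold the counts were 1 (0.0421%) and 0. The 5 higher genes were Tsc22d3, Nedd1, B3galnt2, Klf9 and Uqcc1, and the 4 lower ones Malat1, Hbegf, Rbmx and Trappc5. The second probe sets of Nedd1 and Rbmx, at mean signals of 426 and 428, were just above the floor. Each reached it only with the help of the array where it was high, 100 nM for Nedd1 and ethanol for Rbmx.

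Nedd1, which recruits gamma-tubulin to the mitotic spindle, had 2109 with 100 nM aldosterone against 1582 with ethanol in one probe set. The other had 496 with 100 nM aldosterone against 373 with ethanol, and the difference was 0.41 in each. That other probe set had 393 with 1 nM aldosterone and 451 with spironolactone, a mean of 426. It thus counted as bright only with the help of the array of 100 nM, where it was high. B3galnt2, a glycosyltransferase of the dystroglycan pathway, differed by 0.37 and 0.43, though its arrays of 1 nM aldosterone and spironolactone were higher still in the brightest probe set, at 850 and 859 beside 758 with 100 nM aldosterone and 588 with ethanol. Uqcc1, an assembly factor of respiratory complex III, differed by 0.31 and 0.28. Just short of these, Sesn1, a stress-induced inhibitor of growth signalling, differed by 0.41, 0.45 and 0.22 in 3 bright probe sets.

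Malat1, a nuclear long non-coding RNA, had 5 bright probe sets. The brightest had a signal of 13205 with 100 nM aldosterone against 17411 with ethanol, a difference of -0.40, and the second had 7472 with 100 nM aldosterone against 10684 with ethanol, a difference of -0.52. The others differed by -0.46, -0.52 and -0.34. In the brightest, 1 nM aldosterone had 12830 and spironolactone 12179, and in all 5 the array of ethanol was the highest of the 4.

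The growth factor gene Hbegf had 1601 with 100 nM aldosterone against 1988 with ethanol, a difference of -0.31, and -0.37 in its second probe set. Trappc5, of a vesicle tethering complex, differed by -0.46 and -0.27. Fubp1, a single-stranded DNA-binding protein that regulates Myc, differed by -0.24, -0.38 and -0.68 in 3 bright probe sets, the last with 426 with 100 nM aldosterone against 684 with ethanol.

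**Figure D4:**
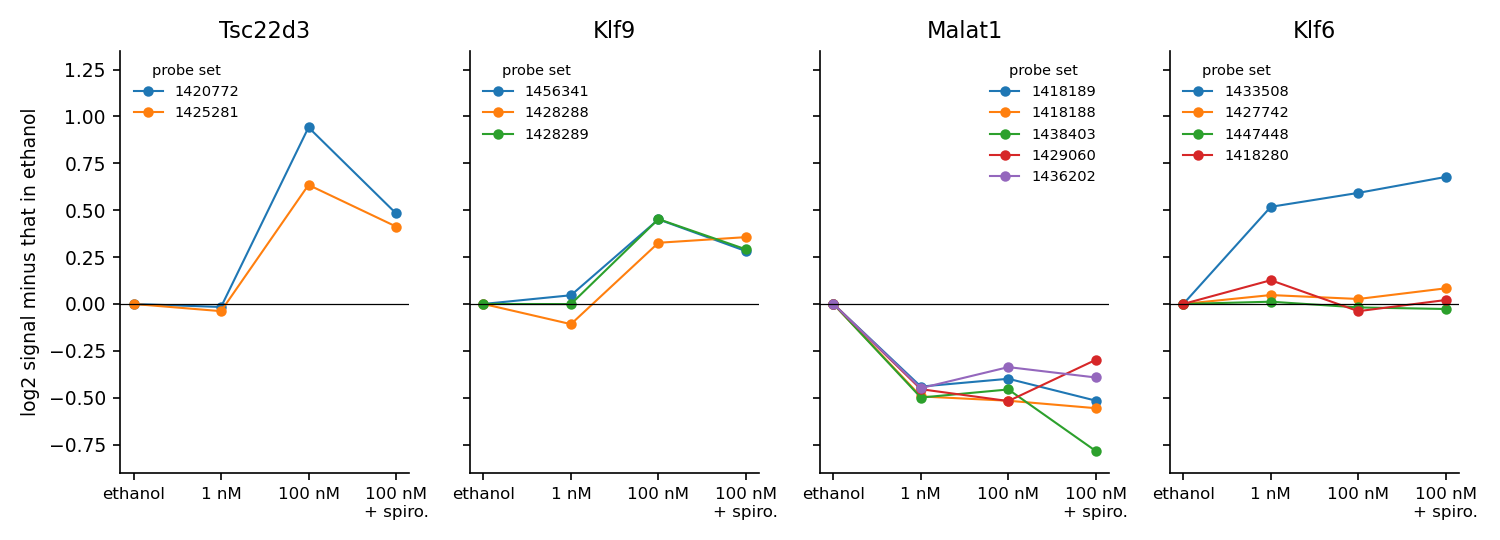
For 4 genes the log2 signal of each bright probe set minus its own value with ethanol is plotted by array, from ethanol at the left through the lower and higher dose to the antagonist, 1 line per probe set. Both Tsc22d3 lines and all 3 of Klf9 are highest or near highest with 100 nM, all 5 of Malat1 lie below 0 on the 3 other arrays, and 1 of 4 Klf6 lines stands apart.

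Of 48 corticosteroid-responsive genes listed, 27 were measured above the floor. Their median difference was 0.02, against -0.01 over all genes, and 17 of 27 were above 0 (63.0%, against 47.5% of all genes). Past 1.5-fold stood Sgk1 and Tsc22d3, both higher, against 0.231% of all genes, and no member was lower by as much, against 0.187%. At 1.2-fold 6 of 27 were higher, against 213 of all 6935 genes (3.07%), adding Tfcp2l1 (0.45, and under the floor with ethanol at 341), Klf9, Sesn1 and Fkbp5. At that fold 2 of 27 were lower, Snai2 at -0.30 and Birc3 at -0.30, against 263 of all genes (3.79%). The stress gene Ddit4 (0.06), the phosphatase gene Dusp1 (0.02), the metallothionein genes Mt1 (0.00) and Mt2 (0.02) and the NF-kB inhibitor gene Nfkbia (0.02) lay near the median. This list, like the others, was chosen with earlier results of these data known, and its counts were not tested.

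The list of genes regulated by aldosterone in the nephron, of which 15 of 36 were measured, had a median of 0.08, with Sgk1, Tsc22d3 and Ccn2 higher by over 1.5-fold, against 0.231% of all genes, and no gene as much lower. Read by the median of each gene's bright probe sets, the list lay at 0.01. Sgk1 and Tsc22d3 were counted in the corticosteroid-responsive list too. The sodium pump subunit Atp1b1 differed by 0.24 in its brightest probe set, by 0.07, 0.01 and 0.08 in its other bright ones, and by -0.44 in one far under the floor. The kinase Wnk1 (0.00), the ubiquitin ligases Nedd4 (-0.02) and Nedd4l (-0.10) and the receptor gene Plaur (-0.23) lay near or below the median of all genes. Distal ion and mineral transport genes, 13 of 42 measured, ran from -0.22 for Slc4a2 to 0.13 for Trpm7, and 0 passed 1.2-fold. Of all genes 3.07% passed 1.2-fold upwards and 3.79% downwards.

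Among 31 steroid receptors, chaperones and coregulators the median was -0.01. Fkbp5 alone passed 1.2-fold, upwards, against 3.07% of all genes. The chaperone Hsp90aa1 differed by -0.24 in its brightest probe set and by -0.03 and 0.06 in its other bright ones. In the circadian clock, 11 genes had a median of -0.02. The repressor gene Cry1 had 832 with 100 nM aldosterone against 1175 with ethanol, a difference of -0.50, and the arrays of 1 nM aldosterone and spironolactone, at 1177 and 1140, lay with ethanol.

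Feedback genes of the ERK pathway and growth factor targets had the lowest median of the 29 lists, -0.13 over 18 genes, of which 4 lay above 0, against 47.5% of all genes. Phlda1 had 1264 with 100 nM aldosterone against 1804 with ethanol, a difference of -0.51, with 1605 and 1551 on the arrays of 1 nM aldosterone and spironolactone. The receptor tyrosine kinase inhibitor Spry2 differed by -0.41, Hbegf by -0.31 and the ERK phosphatase Dusp6 by -0.24. None of the 18 passed 1.5-fold (0.418% of all genes did either way), and 3 were at least 1.2-fold lower, against 3.79% of all genes. With the other treatments, each set against the same ethanol array, the list's median was -0.03 for 1 nM aldosterone and -0.01 for spironolactone. Its members varied there. In the same order, Spry2 lay at -0.66 and -0.29, Hbegf at -0.04 and -0.15 and Dusp6 at -0.06 and -0.003.

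Immediate early genes, which growth signals induce without new protein synthesis, had a median of -0.09 over 22 genes, with 6 above 0, against 47.5% of all genes. The AP-1 subunit Fosl1 had 537 with 100 nM aldosterone against 751 with ethanol, a difference of -0.48, Ier2 differed by -0.25, Ier3 by -0.24 and the zinc finger gene Egr1 by -0.23. Klf6 was the 1 member past 1.5-fold (0.231% of all genes were higher by as much), in the 1 probe set described above. Of TGF-beta and Smad signalling 25 genes had a median of -0.04. Ski and Ccn2 were past 1.5-fold upwards, against 0.231% of all genes, though Ski reached the floor only through the array of 100 nM. Bmp1 at -0.44 and Tgif1 at -0.33 were, with Ltbp3 at -0.30, the 3 members lower by at least 1.2-fold, against 3.79% of all genes. Extracellular matrix genes, 18 of 49 measured, had a median of -0.10, with Ccn2 higher and the perlecan gene Hspg2 at -0.54, which had 674 with 100 nM aldosterone against 978 with ethanol and differed by 0.02 in a dim probe set.

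Insulin signalling and lipid synthesis had a median of -0.05 over 33 genes, with 0 past 1.5-fold, against 0.418% of all genes either way. At least 1.2-fold higher was 1 of 33, against 3.07% of all genes, and at least 1.2-fold lower were 6, against 3.79%. Acaca, the first enzyme of fatty acid synthesis, had 622 with 100 nM aldosterone against 884 with ethanol, a difference of -0.51, with 818 and 844 on the arrays of 1 nM aldosterone and spironolactone. The insulin receptor substrate Irs1 had 1124 with 100 nM aldosterone against 1590 with ethanol, a difference of -0.50, with 1472 and 1769 on the same other arrays. In both genes 100 nM alone was the lowest of the 4 arrays. Foxo3 differed by -0.38 in one bright probe set and -0.08 in the other, and the mTOR complex subunit Rptor by 0.44.

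Mitochondrial fatty acid oxidation had a median of 0.06 over 21 genes, with 17 above 0, against 47.5% of all genes. Cpt2 passed 1.5-fold upwards, as did 0.231% of all genes. Hadhb (0.44, but -0.14 in its other bright probe set) and Crat (0.32) passed 1.2-fold upwards, so that 3 of 21 did, against 3.07% of all genes. Hadhb and Crat were both read by _x_at probe sets. Crat was under the floor with ethanol, at 369, and its dim probe sets differed by 0.07 and -0.45. Most others were close to 0, such as Acadvl at 0.12, Acadm at 0.08 and Hadha at 0.00. The coactivator Ppargc1a differed by -0.17 in its brightest probe set and by 0.08 and -0.17 in its other bright ones. The difference between the medians of the lipid synthesis and oxidation lists was not tested.

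**Figure D5:**
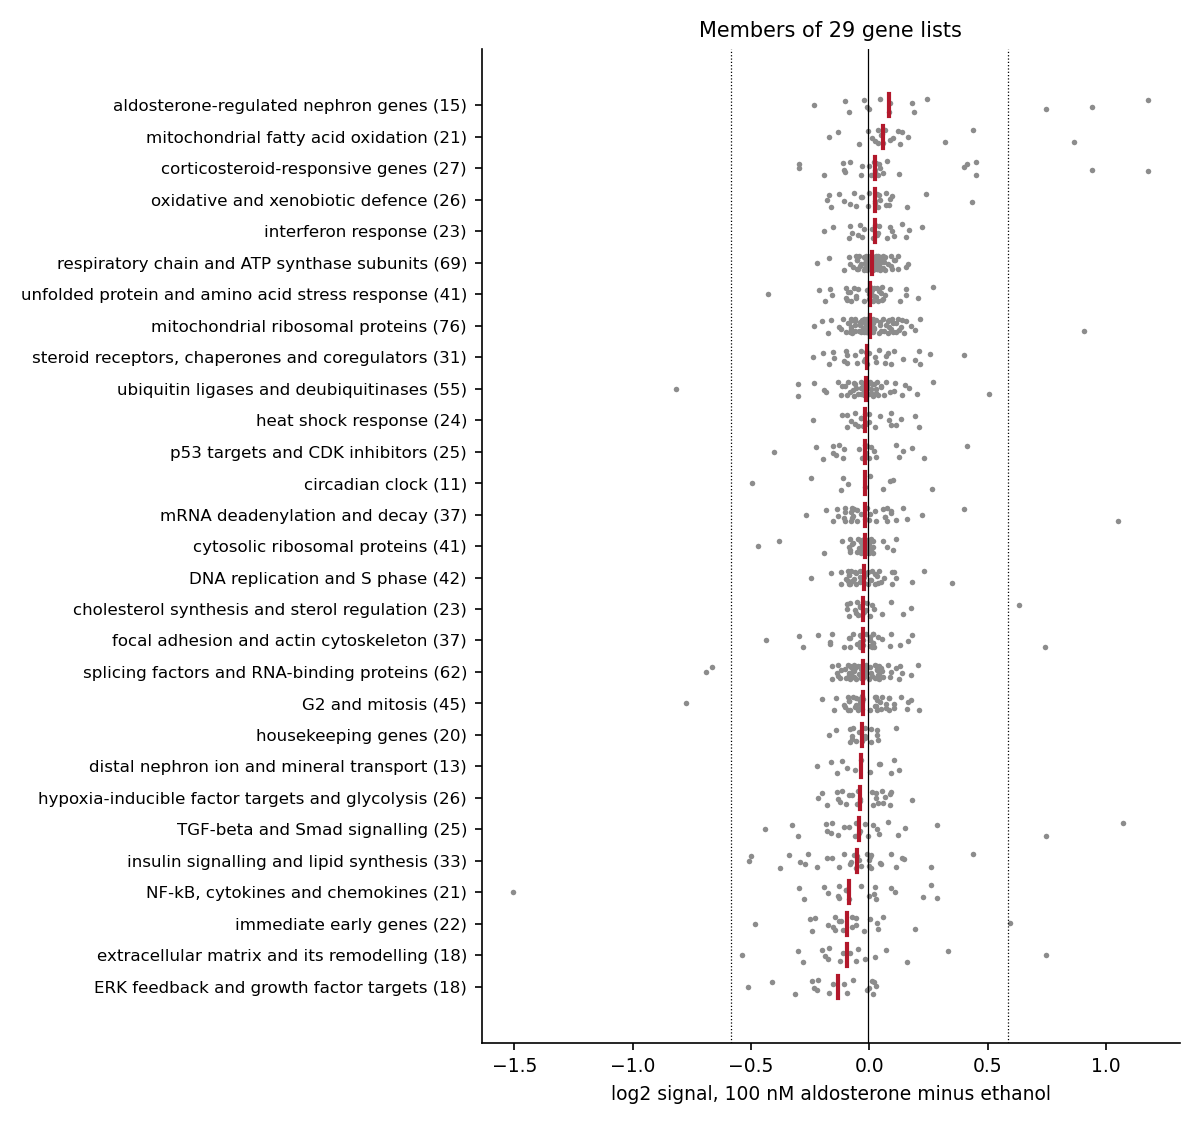
Each grey point is a gene, placed by its log2 difference, 100 nM aldosterone minus ethanol, in 29 gene lists ordered by their median (red bar), with the number of measured genes in brackets and dotted lines at 1.5-fold. List medians run from -0.13 to 0.08, and most lists have 0, 1 or 2 genes past the dotted lines.

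Most of the remaining lists lay closer to the median of all genes. Their counts past 1.5-fold stand against 0.231% of all genes higher and 0.187% lower. Cholesterol synthesis had a median of -0.03 over 23 genes, with Dhcr7 past 1.5-fold. Genes of unfolded protein and amino acid stress (41 genes) had 0.00, hypoxia and glycolysis (26 genes) -0.04, p53 targets (25 genes) -0.02 and heat shock (24 genes) -0.02, each with 0 past 1.5-fold. NF-kB, cytokines and chemokines (21 genes) had -0.09, with Irak1 lower, and interferon response (23 genes) 0.02. Oxidative and xenobiotic defence (26 genes) had 0.02, with the Nrf2 inhibitor Keap1 at 0.43 in its brightest probe set and 0.58 in a dim one.

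Replication in S phase (42 genes) had a median of -0.02 and focal adhesion and actin (37 genes) -0.03, with Akap12 higher among the adhesion genes and Tagln2 at -0.44 in its brightest probe set, an _x_at one, but at 0.18 in its other bright one. Cytosolic ribosomal proteins (41 genes) had -0.02, mitochondrial ones (76 genes) 0.00 with Mrpl33 higher, and respiratory chain and ATP synthase subunits (69 genes) 0.01. Ubiquitin ligases and deubiquitinases (55 genes) had -0.01, with Kctd7 lower and the endosomal deubiquitinase Usp8 at 0.51, which had 1365 with 100 nM aldosterone against 961 with ethanol. Deadenylation and decay (37 genes) had -0.02, with Pan3 higher. The 20 housekeeping genes ran from -0.17 to 0.11, with a median of -0.03.

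Defining markers of the labelled segment were dim. Of 9 distal convoluted tubule markers with a probe set 0 reached the floor, and the sodium chloride cotransporter gene Slc12a3 had a signal of 12.1 with 100 nM aldosterone and 3.93 with ethanol. Summed over these markers, the signal was 924 with 100 nM aldosterone and 868 with ethanol. None of 6 epithelial markers reached the floor, summing to 299.99 with 100 nM aldosterone and 319.95 with ethanol. The proximal tubule list had 2 of 6 at the floor, Aqp1 and Lrp2, and the fibroblast list 1 of 6, vimentin (Vim), with the collagen genes far under it. Markers of principal, intercalated, endothelial and white blood cells were all under the floor. In bulk RNA, fewer cells of a kind and less RNA per cell cannot be told apart.

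The arrays had been scaled to one level: the trimmed mean signal was 500.003 on each, and the medians ran from 58.9 to 61.7. Hybridisation spikes differed by a median of -0.05 between the 2 arrays compared. The 24 probe sets of polyadenylated bacterial spikes differed by a median of 0.23, ranging from -0.32 to 0.71, with 20 above 0, and 3 probe sets of 18S ribosomal RNA by 0.13 to 0.28. The ratio of 3' to 5' signal was 1.33 with 100 nM aldosterone and 1.26 with ethanol for Actb, and 0.741 with 100 nM aldosterone and 0.775 with ethanol for Gapdh. The part of these in the differences above was not tested.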

How the data were processed

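One Affymetrix 3' array was hybridised per treatment with biotin-labelled cRNA from 250 ng of total RNA, per the labels' protocols. The deposited numbers are linear intensities of probe sets, which the authors made with MAS5, as the submitters' processing notes state. No source used here gives its version, scaling target or detection calls. The number of arrays limits the precision.

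Of 45101 probe sets, 64 array controls were left out. The platform annotation gave 1 symbol for 34958 probe sets and several for 932, which were not named; 34754 matched RefSeq genes of GRCm38.p6 by Entrez identifier, changing 0 symbols. Each gene was read by its brightest probe set by mean log2 signal, with no pseudocount. "Bright" means a geometric mean of at least 420 over the 4 arrays, near the upper quartile. Gene lists are described by medians and counts, with no test. The computation used pandas 2.3.3, numpy 2.4.6, scipy 1.17.1 and statsmodels 0.14.6 and was tested on simulated data.

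The genes, lists and thresholds were chosen with earlier results of these data known. Named were the 15 highest and 15 lowest genes, the 15 each way whose bright probe sets agreed best, up to 4 per list, and 10 steroid-related genes. Members of lists beyond the 4 most different, named to show values near 0, were chosen after their values were seen.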

Additional observations from a re-analysis of the deposited data

How the results depend on the processing

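The counts moved most with the signal floor. With a floor of 1000 (4462 genes), 8 genes passed 1.5-fold upwards and 2 downwards, and 2 and 0 passed 2-fold; with a floor of 100 (9886 genes) the counts were 95 and 89 at 1.5-fold, and 22 and 12 at 2-fold. With log2(signal + 50), 2 genes passed 2-fold upwards and 1 downwards; at 1.5-fold 15 of the 16 higher and 9 of the 13 lower genes were left, without Klf6, Ciao3, Stx4a, Tmem158 and 1 gene with a clone-like name. With the floor over the 2 compared arrays Cpt2 and Ppp1r37 dropped out and 1 gene was at least 2-fold lower, and likewise 1 without probe sets ending in _x_at or _s_at, a setting chosen after seeing the data. The 9 genes whose bright probe sets all passed 1.2-fold became 1 at 1.5-fold. Under quantile normalization and after subtracting a lowess trend, all 16 higher genes stayed past 1.5-fold, as did 13 and 12 of the 13 lower ones. With the median over bright probe sets Klf6, Lsm12, Pan3 and Tatdn1 were no longer 1.5-fold higher and Rbmx no longer 1.5-fold lower; without the _x_at and _s_at probe sets Pan3, Pde2a, Tatdn1, Irak1 and Kctd7 dropped out. Of 148 named genes 17 moved with the median over probe sets, Klf6 to 0.00 and Pan3 to 0.43, and 5 list medians, all near 0, changed sign. Other floors admit fewer or more genes by construction; for the rest the cause was not tested. No paired analysis was possible because each treatment has 1 array, and for the same reason no array could be left out.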

Other observations

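Cdkn2a, a tumour suppressor gene that restrains the cell cycle, had a signal of 7295 with 100 nM aldosterone and 6210 with ethanol, but 2812 with 1 nM aldosterone and 2616 with 100 nM aldosterone after spironolactone. Its 100 nM minus ethanol difference was 0.23, while spironolactone differed by -1.48 from 100 nM aldosterone alone. The gene is bright and has a single probe set. The 4 arrays thus fell into 2 pairs that do not follow the dose of aldosterone.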
